A study of Mus musculus with 6 samples.

Results

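Cnot2, Cnot3, Cnot4, Cnot9, Cnot10 and Cnot11 encode core and regulatory subunits of the CCR4-NOT complex, and they were read on all 6 arrays through every probe set that the platform annotation gives to exactly 1 of these genes. All 6 genes were found, with 21 of the 45037 probe sets of the array, among 18193 genes named in the same way. The cells were primary mouse embryonic fibroblasts (MEFs) with floxed CNOT3 alleles, infected with a Cre retrovirus (CNOT3KD MEFs, also called CNOT3-depleted) or with a mock retrovirus (control MEFs, whose genotype the labels give as wild type), and both were selected in puromycin for 2 days. RNA was taken without treatment (0 h) and again 6 h and 12 h after actinomycin D (Act. D), which blocks transcription, was added. Each of the 6 conditions was measured with 1 array, so the differences below carry no replicate check or p-value, and their precision is limited by this number of arrays. The values are MAS5 signals, brightness values on a linear scale that are comparable between arrays for the same probe set but not between probe sets.

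The CCR4-NOT complex shortens the poly(A) tails of mRNAs, the step that usually starts their decay in the cytoplasm. Its deadenylases are held on a large scaffold protein, on which the other subunits form modules. CNOT2 and CNOT3 pair through their C-terminal NOT boxes and dock on the scaffold, CNOT9 binds it through armadillo repeats and receives proteins of the miRNA pathway, and CNOT10 and CNOT11 form a module at its N-terminal end. CNOT4 is a RING-type ubiquitin ligase that belongs to the yeast complex and is only loosely attached in mammals. With transcription blocked, the signal left over time follows the decay of a message, here that of the subunits' own messages.

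The authors' scaling brought each array to nearly the same trimmed mean, between 494 and 497 with the outer 2% left out at each end, so a percentage left is relative to the RNA that remained and can exceed 100%. Signals under the 25th percentile of their array, between 13.6 and 19.8, count as near background, and 18 of the 21 probe sets were never near background. The 1% of probe sets with the highest signals made up 24.4%, 25.6% and 26.4% of the signal at 0, 6 and 12 h in CNOT3KD MEFs, against 24.5%, 31.0% and 34.1% in control MEFs. All 10 fibroblast markers checked (such as Col1a1, Vim and Fn1) were above that level on all 6 arrays. The summed signal of 6 leukocyte markers was 1513, 1458 and 1513 at 0, 6 and 12 h in CNOT3KD MEFs, against 1065, 1479 and 1656 in control MEFs, so that it was higher in CNOT3KD MEFs only at 0 h. That of 5 epithelial markers was 1199, 1417 and 1408 in CNOT3KD MEFs, against 633, 595 and 435 in control MEFs. Of these, Krt18 weighed most, with 862, 1028 and 1087 in CNOT3KD MEFs and 419, 328 and 162 in control MEFs. Krt8 was also higher in CNOT3KD MEFs at all 3 times, while Epcam was lower at 6 h and 12 h. Cdh1 and Krt14 were near background on some control arrays. The part of leukocyte or epithelial cells in the values below was not tested. In such bulk RNA, fewer cells of a type and less RNA per cell cannot be told apart.

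Cnot3, the gene that Cre removes, was lower in CNOT3KD MEFs at all 3 times at its brighter probe set. That probe set (1435965_at) had signals of 239.6, 128 and 82.9 at 0, 6 and 12 h in CNOT3KD MEFs, against 436, 193 and 198 in control MEFs. The CNOT3KD signal was thus 1.82-fold lower at 0 h, 1.5-fold lower at 6 h and 2.39-fold lower at 12 h. The other probe set (1441465_at) had 227, 90.7 and 92.6 in CNOT3KD MEFs, against 204, 201 and 279 in control MEFs. It did not show the lower level at 0 h, where it was 1.11-fold higher, and was 2.22-fold and 3.02-fold lower at 6 h and 12 h. Where these probe sets lie relative to the floxed exons was not known from the sources used here. Probes that bind outside the removed exons need not show the removal. In control MEFs the brighter probe set kept 45.3% of its 0 h signal at 12 h while the other stood at 137%, and in CNOT3KD MEFs they kept 34.6% and 40.8%.

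The sequence before the annotated start of Cnot3 is shown because Cnot3 is the targeted gene and the member with the most CCAAT letters there. It lies on the plus strand at chr7:3645019-3645268 (GRCm38.p6, from RefSeq), is given 5′ to 3′, and has the matches to CCAAT in capitals.
Cnot3: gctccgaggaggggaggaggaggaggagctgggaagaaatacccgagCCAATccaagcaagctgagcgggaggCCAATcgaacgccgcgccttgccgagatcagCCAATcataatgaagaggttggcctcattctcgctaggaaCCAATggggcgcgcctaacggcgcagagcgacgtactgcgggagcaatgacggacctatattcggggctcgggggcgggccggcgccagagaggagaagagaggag
All 4 matches are on the strand of the gene. Of 32851 windows of 250 bases before annotated starts, 33.8% hold CCAAT at least once on either strand and 0.84% hold it 4 times or more. None of the windows of the other 5 members holds it, which says only that these letters are not there.

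Cnot2, whose protein is the direct partner of CNOT3, gave the same picture at all 4 of its bright probe sets. It was between 1.43-fold and 1.48-fold higher in CNOT3KD MEFs at 0 h, and this difference was larger after Act. D. The brightest (1436980_x_at) had 2217, 1545 and 995 at 0, 6 and 12 h in CNOT3KD MEFs, against 1545, 195 and 139.8 in control MEFs. It was 7.91-fold and 7.12-fold higher at 6 h and 12 h, and it kept 69.7% and 44.9% of its 0 h signal in CNOT3KD MEFs, against 12.6% and 9.04% in control MEFs. Most of the fall in control MEFs had taken place by 6 h.

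The 3 other bright probe sets of Cnot2 were also higher in CNOT3KD MEFs at all 3 times, with different fractions left in both cultures. For 1456576_x_at the signals were 1496, 908 and 656 in CNOT3KD MEFs and 1017, 125 and 97.1 in control MEFs. For 1454602_s_at they were 1441, 893 and 749 in CNOT3KD MEFs and 980.5, 182 and 134 in control MEFs. For 1454603_a_at they were 1359, 1326 and 1308 in CNOT3KD MEFs and 915, 334 and 157 in control MEFs. The last one hardly moved in CNOT3KD MEFs, with 97.6% and 96.3% left at 6 h and 12 h, against 36.5% and 17.2% in control MEFs, the most among the 4 in either culture. In Affymetrix names, _a marks probes shared by transcripts of 1 gene, while _s and _x mark probes that can also match other transcripts, so these 4 probe sets are not independent readings and may overlap in sequence.

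The other probe sets of Cnot2 were dim. 1445017_at had 33.6, 33.2 and 36.4 in CNOT3KD MEFs and 2.58, 19.4 and 4.78 in control MEFs, where 0 h and 12 h were near background, and the difference at 0 h was at least 1.7-fold against the 25th percentile of the control array. 1447212_at was near background on 4 of the 6 arrays, the control array at 0 h among them, where the difference was at least 1.23-fold. These dim probe sets were the only members counted as more than 1.5-fold higher at 0 h, 2 of 21, where 18.6% of all probe sets were counted so. The bright Cnot2 probe sets lie just under that size, and with quantile normalization, with each array divided by its median (median scaling) or by the median signal of its ribosomal protein probe sets (ribosomal protein scaling) 6 of 21 were counted, all of them Cnot2, where 20.0%, 21.4% and 20.9% of all probe sets were counted so.

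**Figure D1:**
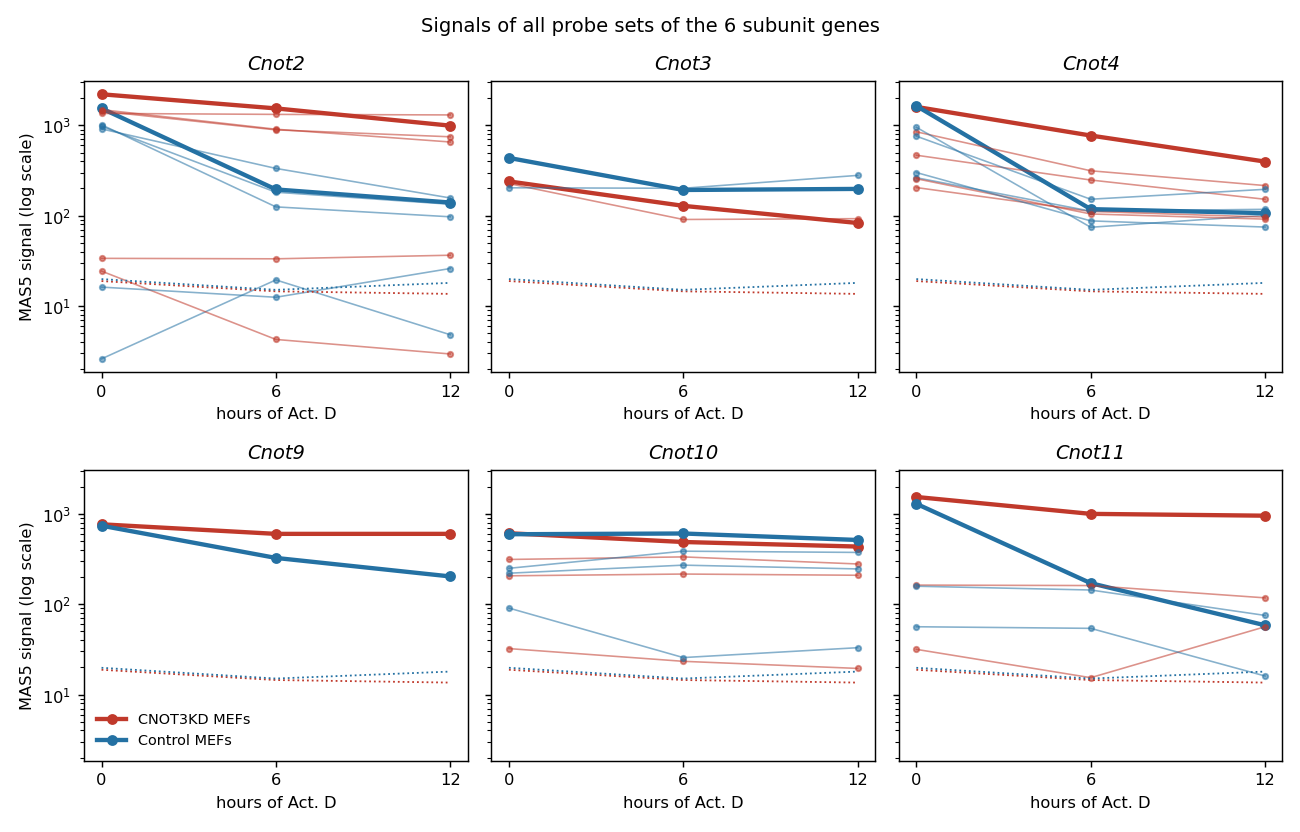
MAS5 signals on a log scale of the 21 probe sets at 0, 6 and 12 h of Act. D, in CNOT3KD (red) and control MEFs (blue), with 1 array per point, the brightest probe set of each gene as a thick line and the 25th percentile of each array dotted. The blue line of Cnot2, of Cnot4 and of Cnot11 drops steeply by 6 h at the brightest probe set (thick) while the red one stays higher, Cnot3 is lower in red at 12 h at both probe sets, and the lines of Cnot10 lie close together except at the dim probe set.

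Cnot9, the subunit that receives proteins of the miRNA pathway, was at about the same level in both cultures at 0 h and remained higher in CNOT3KD MEFs after Act. D. Its only probe set (1450887_at) had 772, 604 and 605 at 0, 6 and 12 h in CNOT3KD MEFs, against 745, 327 and 204 in control MEFs. The CNOT3KD signal did not go down further between 6 h and 12 h, while the control signal did. It was 1.04-fold higher at 0 h, 1.85-fold higher at 6 h and 2.96-fold higher at 12 h in CNOT3KD MEFs, with 78.4% left at 12 h in CNOT3KD MEFs and 27.4% in control MEFs.

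Cnot11 and Cnot10, whose proteins form a module together, did not behave alike. Cnot11 had the largest difference of all members at 12 h, at its bright probe set (1428533_at), whereas at 6 h it was exceeded by probe sets of Cnot2 and Cnot4. The signals were 1550.1, 1007 and 961 at 0, 6 and 12 h in CNOT3KD MEFs, against 1302, 172 and 58.6 in control MEFs. The difference was 1.19-fold at 0 h, 5.86-fold at 6 h and 16.4-fold at 12 h, higher in CNOT3KD MEFs each time. At 12 h 62.0% was left in CNOT3KD MEFs and 4.50% in control MEFs, which was still above the near-background level. Another Cnot11 probe set (1439772_at) went the same way with a smaller size, with 163, 162 and 118 in CNOT3KD MEFs and 159, 144 and 75.4 in control MEFs. The dim one (1452824_at) had 31.7, 15.4 and 56.4 in CNOT3KD MEFs and 56.4, 54.2 and 16.1 in control MEFs, and was 1.78-fold lower in CNOT3KD MEFs at 0 h but at least 3.14-fold higher at 12 h, where the control signal was near background.

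Cnot10 differed by less than 1.5-fold between the cultures at all times at its 3 brighter probe sets. Its brightest probe set (1433882_at) had 614, 491 and 437 at 0, 6 and 12 h in CNOT3KD MEFs, against 599, 610.1 and 517 in control MEFs, so that 71.2% was left at 12 h in CNOT3KD MEFs and 86.4% in control MEFs. 1459756_at had 314, 336 and 280.3 in CNOT3KD MEFs and 251, 388 and 376 in control MEFs. 1459757_x_at had 207, 217 and 210.1 in CNOT3KD MEFs and 221, 272 and 247 in control MEFs. At these 3 probe sets the fraction left was somewhat lower in CNOT3KD MEFs at both times, and with ribosomal protein scaling it was higher in CNOT3KD MEFs for 1433882_at and 1459757_x_at, as a mean of both times. The dim 1453654_at stood apart, with 32.3, 23.3 and 19.5 in CNOT3KD MEFs and 90.9, 25.7 and 33.1 in control MEFs, and was 2.81-fold lower in CNOT3KD MEFs at 0 h.

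The sequence before the annotated start of Cnot10 is shown because it contrasts with that of Cnot3. It lies on the minus strand at chr9:114640201-114640450 (GRCm38.p6, from RefSeq) and is given 5′ to 3′, with the matches to CCGGAAG, a core bound by ETS factors, in capitals on either strand.
Cnot10: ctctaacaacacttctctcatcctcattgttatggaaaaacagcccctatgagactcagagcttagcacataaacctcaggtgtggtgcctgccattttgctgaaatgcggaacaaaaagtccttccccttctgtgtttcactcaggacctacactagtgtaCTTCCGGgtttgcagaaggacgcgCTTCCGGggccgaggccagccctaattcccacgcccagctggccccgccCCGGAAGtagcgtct
Of the 3 matches, 1 is on the strand of the gene and overlaps a GC box. Of the 32851 windows, 6.91% hold CCGGAAG at least once and 0.10% hold it 3 times or more. Among the other members Cnot11 has 1 match. The GC box, GGGCGG, was in the window of every member (for Cnot2 at the start farthest upstream). Matches ran from 1 in Cnot2, Cnot3 and Cnot10 to 4 in Cnot4. Of all windows, 32.7% hold it at least once and 4.09% hold it 4 times or more. CATGCGC, part of the NRF1 motif, was found in Cnot9, with 2 matches. It is held at least once by 3.24% of all windows and 2 times or more by 0.96%. The 4 motifs were searched on both strands, the sequences shown were chosen after the matches were counted, and the matches are a description that no value of the arrays tests.

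Cnot4, the ubiquitin ligase, was similar in both cultures at 0 h at its brightest probe set and differed after Act. D by an amount that depended on the probe set. The brightest (1436645_a_at) had 1606, 773 and 397 at 0, 6 and 12 h in CNOT3KD MEFs, against 1647, 118 and 107 in control MEFs. It was 6.55-fold and 3.73-fold higher in CNOT3KD MEFs at 6 h and 12 h. In control MEFs 7.17% was left by 6 h and hardly less at 12 h, while in CNOT3KD MEFs the signal kept going down, with 48.1% and 24.8% left. 1437586_at gave the same picture, with 850.4, 314 and 216 in CNOT3KD MEFs and 955, 74.3 and 101 in control MEFs.

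The 3 other Cnot4 probe sets, with lower signals, showed less of this. 1450083_at had 468, 248 and 152 in CNOT3KD MEFs and 760.4, 152 and 196 in control MEFs, so it was 1.63-fold lower at 0 h, higher at 6 h and lower again at 12 h. It kept 53.1% and 32.5% at 6 h and 12 h in CNOT3KD MEFs and 20.0% and 25.8% in control MEFs. 1421000_at kept 54.4% and 47.0% in CNOT3KD MEFs and 42.6% and 44.6% in control MEFs. 1420999_at kept 40.7% and 35.7% in CNOT3KD MEFs and 29.1% and 24.9% in control MEFs. At all 5 probe sets the fraction left was higher in CNOT3KD MEFs at both times, from 1.05 to 3.83 times that of control MEFs at 12 h.

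**Figure D2:**
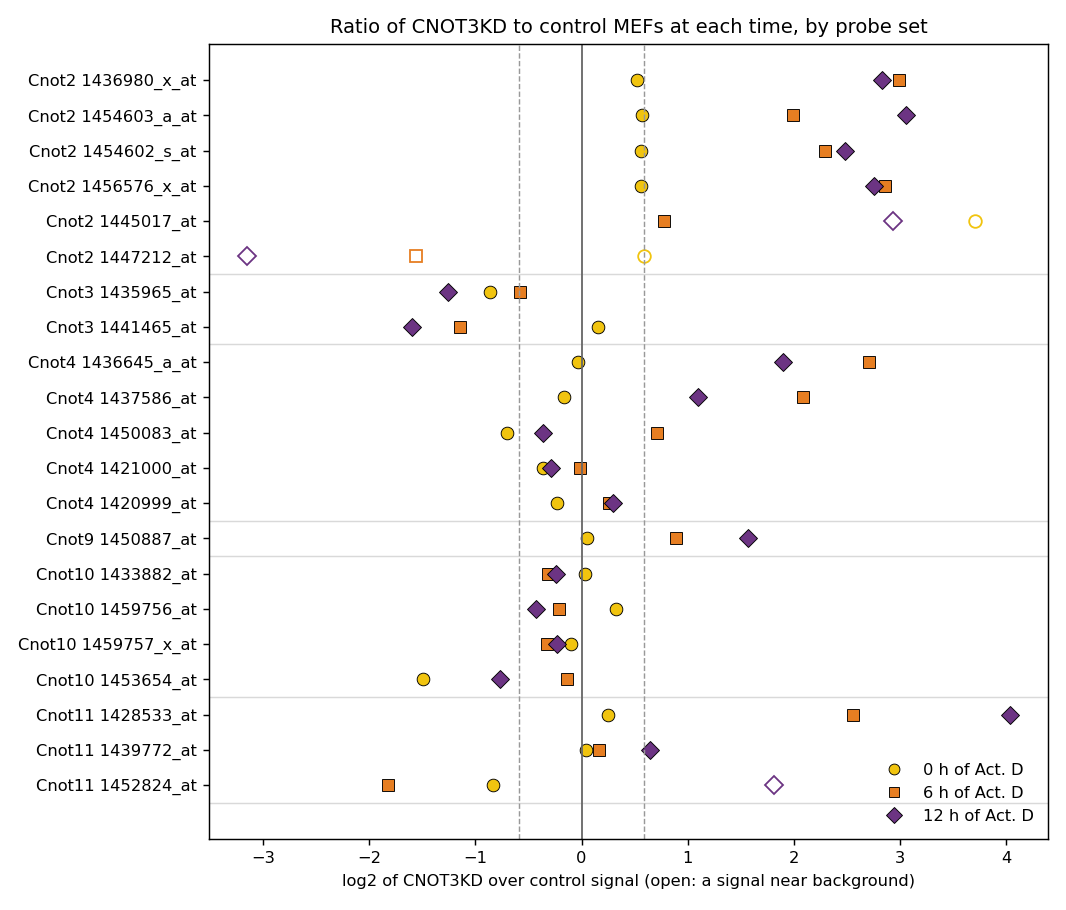
Log2 of the CNOT3KD over the control signal at 0 h (circles), 6 h (squares) and 12 h (diamonds) for each of the 21 probe sets, open where a signal was near background, with dashed lines at 1.5-fold. At 0 h most points lie near or inside the dashed lines, while at 6 h and 12 h the bright probe sets of Cnot2, Cnot4, Cnot9 and Cnot11 lie to the right and both probe sets of Cnot3 to the left.

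Counted over all 21 probe sets with the deposited signals, the members differed little between the cultures at 0 h and more after Act. D. At 0 h, 4 of 21 were more than 1.5-fold lower in CNOT3KD MEFs, 1 each of Cnot3, Cnot4, Cnot10 and Cnot11, where 22.1% of all probe sets were counted so. With the deposited signals, both shares at 0 h were near or under those of all probe sets. The share of higher ones depended on the scaling. It was 6 of 21 with quantile normalization, median scaling or ribosomal protein scaling, above the 20.0%, 21.4% and 20.9% of all probe sets. At both 6 h and 12 h, 9 of 21 were more than 1.5-fold higher in CNOT3KD MEFs, from Cnot2, Cnot4, Cnot9 and Cnot11, against 15.4% of all probe sets. The dim 1445017_at of Cnot2 was among them, with a control signal near background at 12 h. At both times 2 of 21 were more than 1.5-fold lower, 1 of Cnot3 and the dim 1447212_at of Cnot2, against 16.3% of all probe sets. These comparisons share the same arrays.

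Stabilization is used here for the log2 ratio of the fraction of the 0 h signal left in CNOT3KD MEFs to that left in control MEFs, averaged over 6 h and 12 h. It was 3.04 for Cnot11, 2.39 for Cnot2, 2.34 for Cnot4, 1.18 for Cnot9, −0.05 for Cnot3 and −0.31 for Cnot10 at the brightest probe sets. With ribosomal protein scaling, which shifted the median over all probe sets by 0.57, the values of Cnot3 and Cnot10 turned to 0.51 and 0.25, and with 16 added to every signal that of Cnot3 was 0.00. At these probe sets the order of the 6 genes ran from Cnot11 to Cnot10 with Cnot2 and Cnot4 nearly level. By the median over each gene's probe sets the order differed, with 1.89 for Cnot2, 1.18 for Cnot9, 0.87 for Cnot4 and 0.83 for Cnot11. The lowest were then −0.25 for Cnot10 and −0.79 for Cnot3. Without replicates the spread that would separate neighbours in either order is unknown.

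Stabilized probe sets were those whose 0 h signal reached the median of all probe sets, whose CNOT3KD ratio of 6 h to 0 h was between 0.5 and 2, and whose fraction left in CNOT3KD MEFs was at least 2 times that in control MEFs at both times. Of the 17 member probe sets that reached the median signal, 5 met this rule, the 4 bright ones of Cnot2 and the bright one of Cnot11, against 8.89% of all probe sets at that level. Both leading Cnot4 probe sets had fractions left that were 2.4 to 6.71 times those of control MEFs, and were left out because the share of the signal left at 6 h in CNOT3KD MEFs, 48.1% and 37.0%, was under the lower limit. Cnot9 was left out because its fraction left was 1.78 times that of control MEFs at 6 h, although it was 2.86 times at 12 h.

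The median signal left after 12 h was lower for these 17 than for all probe sets in both cultures, while the 3 of Cnot10 and 1 of Cnot3 kept more than that of all in control MEFs. At or under 25% of the 0 h signal after 12 h were 1 of these 17 probe sets in CNOT3KD MEFs (Cnot4), against 10.1% of all probe sets at that level, and 8 of 17 in control MEFs (of Cnot2, Cnot4 and Cnot11), against 19.7% of all. The median left at 12 h was 47.0% for the 17 in CNOT3KD MEFs and 25.8% in control MEFs, while for all probe sets at that level it was 91.4% in CNOT3KD MEFs and 73.9% in control MEFs. The median stabilization of the 17 was 0.87, against 0.04 for all. Their median log2 ratio at 0 h was 0.04, against −0.01 for all. Probe sets of 1 gene share their message, so these counts are not over independent items.

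**Figure D3:**
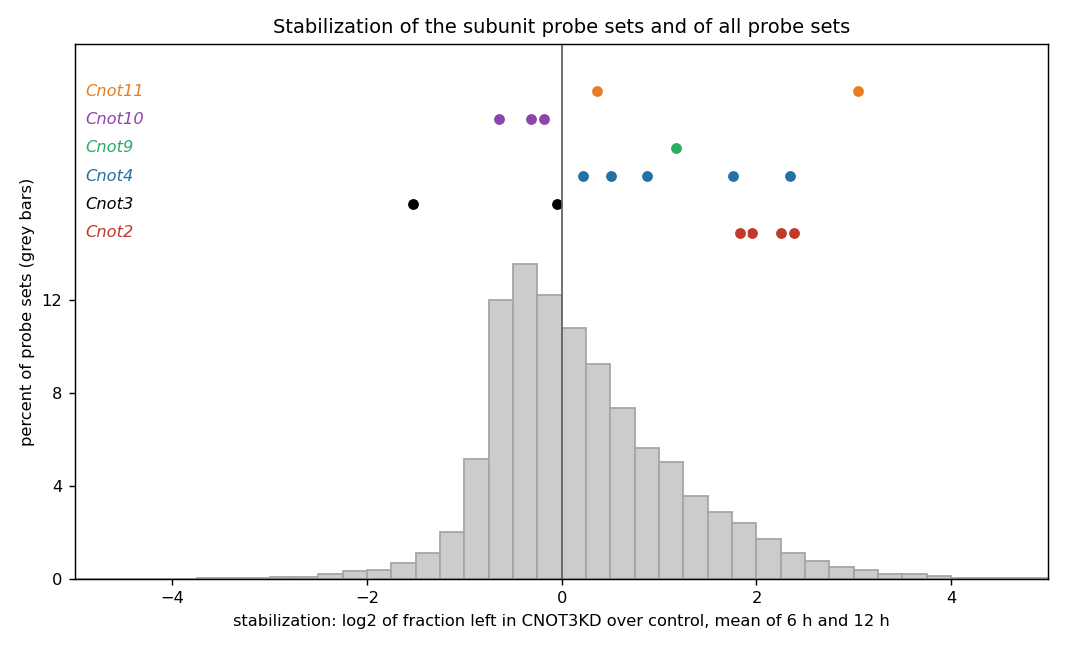
Stabilization, as log2 of the fraction left in CNOT3KD over control MEFs averaged over 6 h and 12 h, of the 17 member probe sets that reached the median signal (coloured points, a row for each gene) above the distribution of all 22519 probe sets at that level (grey bars, percent of probe sets). All points of Cnot2, Cnot4, Cnot9 and Cnot11 lie right of 0 and those of Cnot3 and Cnot10 left of it, with Cnot11 farthest right at 3.04, and with ribosomal protein scaling 1 point of Cnot3 and 2 of Cnot10 move right of 0.

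Probe sets of the same gene often differed. The stabilization values of the 5 Cnot4 probe sets ranged from 0.21 to 2.34, a range of 2.13, and the median range of the 463 genes with 5 probe sets was 2.12. Those of Cnot10 ranged over 1.69, where the median of genes with 4 was 1.84. Cnot11 had a range of 2.68 against a median of 1.43 for genes with 3 probe sets, and Cnot3 one of 1.47 against 0.81 for genes with 2. For Cnot2 the range was 5.33 over all 6 probe sets, against a median of 2.48 for genes with 6, and the values ran from 1.83 to 2.39 over the 4 that were never near background. At 0 h the log2 ratios of those 4 lay between 0.52 and 0.57, while those of Cnot3 differed by 1.02.

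Of the members, the profiles of Cnot2 and Cnot11 over the 6 arrays lay closest to each other, with a Euclidean distance of 0.97 between their mean-centred log2 signals, followed by Cnot2 and Cnot4 at 1.11 and by Cnot3 and Cnot10 at 1.46. Those of Cnot3 and Cnot11 were farthest apart, at 4.59. Among the other named genes with no signal near background, the nearest to Cnot2 were Spata5, an ATPase gene, at 0.32, and Gna13, a G protein gene, also at 0.32. Nearest to Cnot11 were Cebpg, a bZIP factor gene, at 0.24 and Gtf2e1, which encodes a subunit of TFIIE, at 0.31. Nearest to Cnot4 were Nmd3, which encodes an export adaptor of the large ribosomal subunit, at 0.32 and Tmcc3 at 0.34. Sik2 and Csk, both kinase genes, were at 0.10 and 0.14 from Cnot9. Tubb4b, a tubulin gene, and Usf2, a transcription factor gene, were both at 0.13 from Cnot10. Chka, a choline kinase gene, was at 0.18 and Taf1d at 0.25 from Cnot3. These are the nearest of all probe sets that could be named, over only 6 arrays that share the same Act. D course, and the distances are a description.

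The deadenylase subunits of the complex were compared with the 6 members at their brightest probe sets. Cnot8 was higher in CNOT3KD MEFs at all 3 times, with 1774, 1132 and 1046 at 0, 6 and 12 h in CNOT3KD MEFs, against 1387, 351 and 235 in control MEFs, and a stabilization of 1.57. Cnot7, its close relative, had 3064, 2552 and 2334 in CNOT3KD MEFs and 3567, 1897 and 779.5 in control MEFs, with a stabilization of 1.22, and was lower in CNOT3KD MEFs only at 0 h. Cnot6l had 1263, 892 and 628 in CNOT3KD MEFs and 1511, 926 and 634 in control MEFs, nearly the same course in both. Cnot6 went the other way, with 2203, 2336 and 2088 in CNOT3KD MEFs and 2960.4, 4132 and 4591 in control MEFs, and a stabilization of −0.55. With Pan2, Pan3 and Parn, listed here for deadenylases outside the complex, 0 of 7 genes differed by over 1.5-fold at 0 h in either direction. Of the 7, 1 was stabilized (Cnot8), and the median stabilization was 0.33. All 7 reached the median signal, and of all probe sets at that level 9.46% were higher at 0 h, 11.7% lower and 8.89% stabilized.

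**Figure D4:**
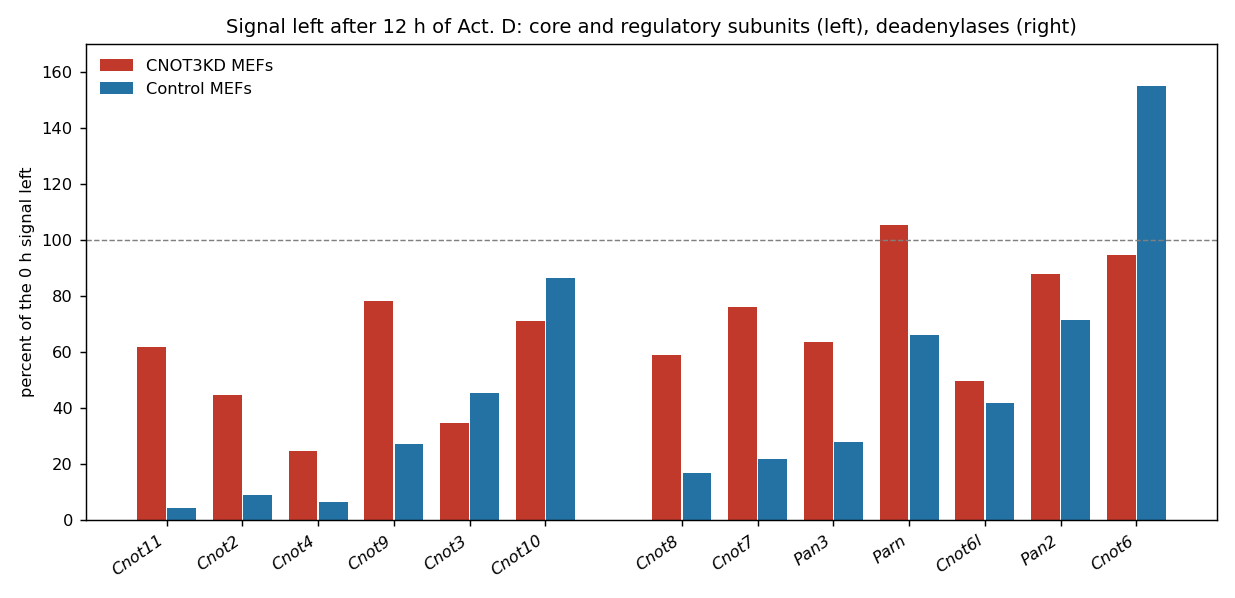
Percent of the 0 h signal left after 12 h of Act. D at the brightest probe set of each member (left) and of each deadenylase gene (right), in CNOT3KD (red) and control MEFs (blue), with 1 array per time and a dashed line at 100%. The red bar is higher for Cnot11, Cnot2, Cnot4 and Cnot9 and lower for Cnot3 and Cnot10, and among the deadenylases the blue bar is higher only for Cnot6.

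Other genes of the same decay pathway were counted by the same rules, at their brightest probe sets. Among 15 measured genes of decapping and 5′ to 3′ decay, 0 were higher at 0 h by over 1.5-fold, 2 were lower (Dcp2 and Lsm6) and 4 were stabilized (Edc3, Edc4, Patl1 and Lsm2), with a median stabilization of 0.25. Their values ran from 1.37 for Edc3, an enhancer of decapping, to −0.66 for Ddx6, a helicase that binds the complex. Among 19 measured adaptors that bring the complex to mRNAs, 1 was higher at 0 h (Tob1), 1 was lower (Zfp36l2) and 0 were stabilized, with a median of −0.11. They ran from 1.28 for Zfp36l2, which binds AU-rich elements, to −1.18 for Btg2, which binds deadenylase subunits. Of the 6 members at their brightest probe sets, 0 were higher at 0 h, 1 was lower (Cnot3) and 2 were stabilized (Cnot2 and Cnot11), with a median of 1.76. All of these genes reached the median signal at these probe sets, and genes under that level cannot count as stabilized. Of all probe sets at that level, 9.46% were higher at 0 h, 11.7% were lower and 8.89% were stabilized, with a median of 0.04. Over all 18193 genes, dim ones included, 19.5% were higher, 15.7% were lower and 6.44% were stabilized, and the median stabilization was 0.02.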

How the data were processed

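The authors hybridised RNA of each culture to an Affymetrix GeneChip array of the mouse genome and deposited 1 MAS5 intensity signal per probe set, on a linear scale with a smallest value of 1. The sources used here do not state the MAS5 version or the scaling target. The signals were used as deposited, and no columns (0) belonged to other samples. Of the 45037 probe sets, the platform annotation gives 1 gene symbol to 34945, several to 932 and none to 9160, and 34741 of the 34945 were matched by gene identifier to RefSeq (GRCm38.p6), with 0 changed symbols.

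A gene's brightest probe set is that whose log2 signal, averaged over the 6 arrays, was highest. Log2 ratios, percentages left, counts and medians were computed with Python 3.11.15, numpy 2.4.6, pandas 2.3.3 and scipy 1.17.1, and the steps that count were checked on simulated data. Where a signal was near background, a fold is given against the 25th percentile of that array as a bound. All members and all their probe sets are named, with the 4 deadenylase subunits of the complex, the extremes of the other lists, the genes that counts of 5 or fewer consist of, and the 2 nearest profiles of each member. The members and lists were chosen with earlier results of these data known.

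With 1 array per condition, nothing was tested. Alternatives were quantile normalization, division by the array median or by the median of the cytosolic ribosomal protein probe sets, 16 added to every signal, the median over a gene's probe sets, 6 h or 12 h alone, a 2-fold limit, and the filter on low signals added to the counts at 0 h or dropped from the count of stabilized probe sets.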

Additional observations from a re-analysis of the deposited data

Results flagged for a closer look

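For 6 of the 18 probe sets that were never near background, the ratio of CNOT3KD to control MEFs changed sides between times. It lay on one side of 1 at 0 h and on the other at both 6 h and 12 h, a difference that was not tested. How many of all probe sets do the same was not counted, so 6 cannot be called many or few. Stabilization was −1.53 for 1441465_at of Cnot3, which was higher in CNOT3KD MEFs at 0 h and lower at 6 h and 12 h. It was 2.34, 1.76 and 0.50 for 1436645_a_at, 1437586_at and 1420999_at of Cnot4, which were lower in CNOT3KD MEFs at 0 h and higher later. It was −0.31 and −0.64 for 1433882_at and 1459756_at of Cnot10, which were higher in CNOT3KD MEFs at 0 h and lower later. At 0 h all 6 differences were under 1.5-fold, and for 1436645_a_at the log2 ratio of −0.04 was 0.05 with median scaling and 0.04 with ribosomal protein scaling. With ribosomal protein scaling the log2 ratio at 0 h and the stabilization were 0.11 and 0.25 for 1433882_at. For 1459756_at they were 0.40 and −0.08. Under that scaling both Cnot10 probe sets were thus higher in CNOT3KD MEFs at 0 h and, on average, also after Act. D.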

How the results depend on the processing

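A value counts as moved where an alternative shifted it by 1.5 times or more, since there are no replicates to give a spread. Of 89 recomputed values 13 moved and 76 did not, and the cause was not tested. The shift of 0.57 in stabilization by ribosomal protein scaling is under this limit. The values of Cnot3 and Cnot10 at their brightest probe sets thus changed sign under it without counting as moved. Taking each gene's median over its probe sets in place of the brightest, stabilization was −0.79 for Cnot3, 0.87 for Cnot4 and 0.83 for Cnot11. For Cnot11 it was 2.30 at 6 h alone and 3.79 at 12 h alone. The members more than 1.5-fold higher at 0 h, 2 with the deposited signals, numbered 6 with quantile normalization, 6 with median scaling, 6 with ribosomal protein scaling, 1 with 16 added, 1 at a 2-fold limit and 0 at or above the median signal, where 18.6% of all probe sets were higher with the deposited signals and 20.0%, 21.4%, 20.9%, 11.9%, 10.9% and 9.46% in the same order. Those lower, 4 with the deposited signals, numbered 1 at a 2-fold limit and 2 at or above the median signal, where 12.4% and 11.7% of all were lower. The 5 stabilized members numbered 4 with quantile normalization, without 1454603_a_at of Cnot2, and 6 with median or ribosomal protein scaling, with a Cnot4 or the Cnot9 probe set added. The stabilized share among all probe sets that reached the median signal was 8.89% with the deposited signals (2003 probe sets). It fell to 6.80% with quantile normalization and was 9.27% with median scaling. With ribosomal protein scaling it rose to 17.9% (4040 probe sets), so the added member there came with a larger share of all probe sets. With 16 added, 5351 probe sets were higher at 0 h and 6432 lower, against 8393 and 9969 with the deposited signals. No paired analysis was possible because each condition has 1 array, and for the same reason no array could be left out. The signal over background limits the dim probe sets of Cnot2 and Cnot11, which were near background on at least 1 array.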
